A study of Mus musculus with 16 samples.

Results

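This account covers the hearts of wild type mice set against whole newborn mice, as measured on the 4 arrays whose labels give the genotype MuRF1 +/+ MuRF2 +/+, of 16 arrays in the series. Each array was an Agilent two-colour oligonucleotide array of the 4x44K mouse design. Its Cy5 channel held RNA of 1 heart sample from mice of 12 weeks with both alleles of MuRF1 (Trim63) and of MuRF2 (Trim55) intact. Its Cy3 channel held a pool of RNA from C57BL/6 mouse pups, taken whole at postnatal day 1. The design text calls the mouse groups strain-matched, and the sex of the mice and the number of pups pooled are not given in the sources used here. The series was made to compare hearts of mice lacking MuRF1, MuRF2 or both, on the other 12 arrays, and the pup RNA served there as the common reference. All 4 arrays share that 1 pup pool, so the errors below are the spread between the 4 heart arrays, which the labels call biological replicates, and not between pups.

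The heart is built mostly from the mass of its muscle cells, which contract without rest and draw most of their energy from fatty acids oxidised in mitochondria. In the first weeks after birth mouse heart muscle cells largely leave the cell cycle, turn from glucose and lactate to fatty acids, and exchange fetal forms of contractile proteins for adult ones. A whole pup also contains a heart, along with skeletal muscle, skin, skeleton, brain, gut and a liver that still makes blood cells. A ratio of adult heart to whole pup therefore mixes a difference of organ with a difference of age, which cannot be told apart here. In bulk RNA, fewer cells of a type and less RNA per cell cannot be told apart either.

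Every value named a log2 ratio is the log2 of heart signal over pup signal, so that 1 stands for 2-fold more signal from heart RNA and -1 for 2-fold more from pup RNA. Heart signal was well above background for 15171 to 16664 of 41174 probes on each array and pup signal for 22080 to 23084. After probes that were dim in both channels were set aside, 15414 genes were tested with limma's treat method, which asks whether a ratio differs from 1 by more than 2-fold. A gene is called higher or lower below where the Benjamini-Hochberg adjusted p of that test was under 0.05. The dyes were never swapped between heart and pup, so a dye effect on a single gene and a true difference cannot be told apart. The labelling protocol names only Cy3-CTP, and the direction of the ratio follows the channel entries of the labels. Both tissue markers went with that direction: Myh6, the adult heart myosin, had a log2 ratio of 3.97 ± 0.15 (SD, n = 4), and Afp, made by fetal liver, had -6.30 ± 0.37.

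Of the 15414 genes, 937 (6.08%) were higher in heart and 1073 (6.96%) were lower. Among them 272 were more than 4-fold higher and 337 more than 4-fold lower. The median log2 ratio of all genes tested was -0.08. The median SD of a gene's log2 ratio over the 4 arrays was 0.10, and 12662 of the 15414 genes had the same sign on all of them. Slide 1 held arrays 1 and 2, and slide 3 held arrays 3 and 4. When the ratio was tested against 0 in place of 2-fold, 78.9% of all genes passed, 5272 higher and 6889 lower. Median centring of the arrays in place of loess moved the median of all genes to -0.27 and gave 600 higher and 1531 lower, so that 28.2% of the calls were of higher genes, against 46.6% with loess.

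**Figure D1:**
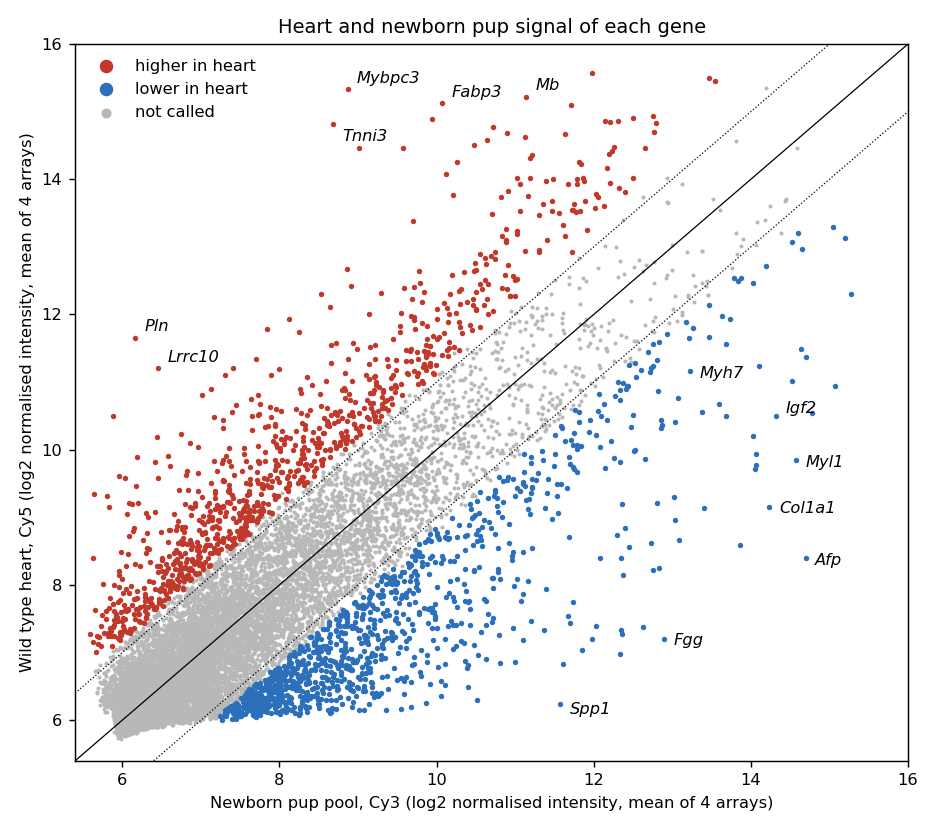
Log2 normalised intensity of 15414 genes in wild type heart (Cy5, vertical axis) and in the newborn pup pool (Cy3, horizontal axis), each point the mean of 4 arrays. The solid line marks equal signal and the dotted lines 2-fold differences; 937 genes higher in heart are red, 1073 lower in heart are blue, and Mybpc3 and Afp lie farthest from the line.

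Genes of the contractile machine had the 2 highest ratios. The highest of all belonged to Mybpc3, the cardiac form of myosin binding protein C, a thick filament protein that tunes cross-bridge cycling. Mybpc3 had log2 ratios of 6.26, 6.69, 6.49 and 6.4 on arrays 1 to 4 (adjusted p = 4.09e-13). Its mean log2 intensity was 15.3 in heart and 8.9 in pup. Tnni3, cardiac troponin I, the inhibitory subunit of the calcium switch on the thin filament, followed with 6.25, 6.19, 6.11 and 6.01. Myl2, the ventricular regulatory myosin light chain, had 5.18, 5.13, 4.71 and 4.73, with both arrays of slide 1 above both of slide 3. Tnnt2, cardiac troponin T, which ties the troponin complex to tropomyosin, had 4.12, 4.13, 3.95 and 4.02 on its brightest probe, and its other kept probe had a mean of 0.28. Myh6 had 3.88, 4.01, 4.15 and 3.83. The heart values of these genes lay above the pup signal on every array by far more than the arrays differed from each other.

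Of all genes tested 6.08% were higher and 6.96% lower, the shares to set beside the count of each list below. Of 38 genes of the cardiac sarcomere, 36 were measured. Of these 27 were higher in heart, 4 were lower and 5 were not called, with a median log2 ratio of 1.90. The highest also included Tnnc1 (3.51), the calcium-binding troponin of heart and slow muscle, Myl3 (3.39), the ventricular essential light chain, and Actc1 (2.58), cardiac actin. The giant spring protein titin, Ttn, chosen after its value was seen, had a ratio of -0.84 on its brightest probe and was not called. The 9 kept probes of Ttn ranged from -1.13 to 0.96, on both sides of 0. The 4 genes lower in heart were Myl4 (-2.72) and Myl7 (-1.83), light chains of the atrium and of the embryonic heart, Myh7 (-2.07), the myosin of slow skeletal muscle and fetal ventricle, and Myot (-1.61), a Z-disc protein of skeletal muscle. Myh7 had log2 ratios of -1.75, -1.95, -2.48 and -2.09. With all 16 arrays in the fit, which takes the spread from every genotype, Myh7 (adjusted p = 0.231) and Myot were no longer called and 2 of the 36 genes were lower. Myot was also not called with plain subtraction of the background.

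Promoters of sarcomere genes often carry sites for the muscle factors MEF2 and SRF, which binds the CArG box, and for GATA factors. The promoters of Mybpc3 and Actc1 are shown because Mybpc3 had the highest ratio of all and both are sarcomere genes whose promoters hold a match, with the MEF2 match of Mybpc3 and the CArG match of Actc1 in capitals. Each run is the 250 bases before the RefSeq start of the gene in the GRCm38.p6 mouse assembly, 5′ to 3′ on the strand of the gene: chr2:91117894-91118143 (plus strand) and chr2:114052876-114053125 (minus strand).
Mybpc3: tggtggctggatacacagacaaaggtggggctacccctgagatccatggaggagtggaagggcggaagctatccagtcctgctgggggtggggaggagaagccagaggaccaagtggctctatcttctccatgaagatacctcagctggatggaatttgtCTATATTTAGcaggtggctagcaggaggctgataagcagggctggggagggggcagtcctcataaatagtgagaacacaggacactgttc
Actc1: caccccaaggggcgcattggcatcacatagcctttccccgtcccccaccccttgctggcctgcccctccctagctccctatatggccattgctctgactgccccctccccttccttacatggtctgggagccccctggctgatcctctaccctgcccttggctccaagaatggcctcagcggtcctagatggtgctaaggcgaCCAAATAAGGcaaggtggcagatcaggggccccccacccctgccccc
The MEF2 match begins 90 bases before the start of Mybpc3 and the CArG match 47 bases before the start of Actc1. RefSeq promoters were found for 32 of the 38 sarcomere genes, with 43 starts, and were searched on both strands over 300 bases, 250 before and 50 after the start. MEF2 matched in 14% of them, the CArG box in 16.3% and GATA, spelled AGATAA, in 25.6%. Among 13652 promoters of all genes tested the shares were 1.81%, 1.41% and 6.99%. They were 3.46%, 1.96% and 7.84% for all genes higher in heart, and 2.01%, 2.85% and 10.6% for all genes lower. In the 24 promoters of the liver list, whose genes were mostly lower in heart, they were 8.33%, 8.33% and 16.7%. MEF2 and GATA matches can overlap each other. A match is a run of letters and not a measured binding site.

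**Figure D2:**
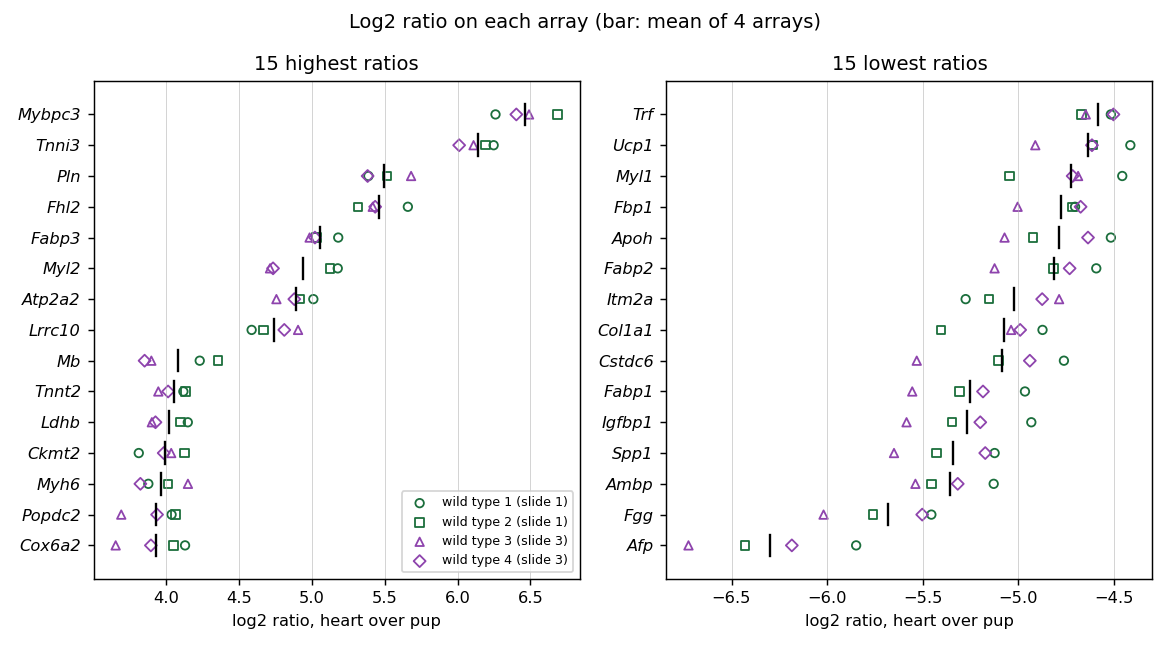
Log2 ratio of heart over pup on each of the 4 wild type arrays for the 15 genes with the highest means (left) and the 15 with the lowest (right), among genes well above background in both channels on all arrays. Green symbols are arrays of slide 1, purple symbols arrays of slide 3, and bars are means; they run down to 3.93 (Cox6a2) on the left and to -6.30 (Afp) on the right, and no gene's arrays fall on both sides of 0.

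Among genes of calcium handling and electrical activity, Pln, phospholamban, the small protein that restrains the calcium pump of the sarcoplasmic reticulum, had log2 ratios of 5.39, 5.52, 5.68 and 5.38. The pump itself, Atp2a2 (SERCA2), had 5.01, 4.92, 4.76 and 4.88 on its brightest probe, and its 3 kept probes ranged down to 1.15. Of 30 measured genes of calcium cycling and ion channels (of 35 listed), 17 were higher and none lower, with a median of 1.33. Here and in every list below of which none is said to be higher, lower or called by limma's treat, the count in that direction was also 0 at an unadjusted p under 0.05. Under median centring 10 of the 30 calcium and channel genes were higher. With plain subtraction of the background 25 were higher and 1 was lower, with an offset of 0 24 and 1, and with the Feature Extraction log ratio 24 and 2. Kcnip2, the accessory subunit of the transient outward potassium channel, was well above background in heart and not in pup, at least 2.46-fold higher, and was not called under median centring or with all 16 arrays in the fit. Ryr2, the calcium release channel, was likewise above background only in heart, at least 1.64-fold on its brightest probe, and was not called. The other kept probe of Ryr2 had a mean of 0.62.

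Where a gene had no probe well above background in 1 channel on any array, its fold is a lower bound. It is the mean signal of the bright channel over the lowest signal well above background in the other channel, or over the gene's own signal there where that was higher. By this rule 59 genes were measured in heart only, 12 of them with a bound over 2-fold, and 2896 genes in pup only, 119 of them with a bound over 2-fold. In heart only, beside the genes named with their groups, Mov10l1, an RNA helicase gene, was at least 2.94-fold higher and Krt222, a keratin-like gene, at least 2.66-fold; Krt222 was not called under median centring or with all 16 arrays in the fit. Tnni3k, a kinase of heart muscle, was at least 2.02-fold brighter in heart, Rbm20, the splicing factor of titin, at least 2.01-fold, and Kcnj3, an atrial potassium channel, at least 1.91-fold, and none of these 3 was called.

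The intercalated disc, which couples neighbouring heart muscle cells, had 17 of 18 genes measured, 7 of them higher and none lower, with a median of 0.92. Popdc2, a cyclic AMP binding membrane protein, had the highest ratio, 3.93 ± 0.17, followed by Pkp2 (3.49), a desmosome plaque protein. Dsp, desmoplakin, had 2.02 on its brightest probe, and was not called with the median of its 4 kept probes. Among other named genes of heart muscle, Fhl2, a LIM domain adaptor, had log2 ratios of 5.66, 5.32, 5.42 and 5.44. Lrrc10, a leucine-rich repeat protein of the heart, had 4.59, 4.67, 4.91 and 4.81.

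Cardiac transcription factors had smaller ratios. Of 21 measured (of 24), 8 were higher and none lower, with a median of 0.78. Under median centring 4 were higher and 1 was lower. With plain subtraction or an offset of 0, 12 were higher and 2 lower, and with the Feature Extraction log ratio 13 and 1. Nkx2-5, a homeobox factor that directs heart formation, had 3.18, 3.12, 3.12 and 2.88. Smyd1, a muscle histone methyltransferase, had a ratio of 2.49, and Hopx, a homeodomain-only protein, 1.79. Tbx20, a T-box factor of the heart, was above background in heart and not in pup. It was at least 3.78-fold higher on its brightest probe, and its other kept probe had a mean of 0.74.

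Natriuretic and atrial genes did not move together: of 11 measured (of 14), 3 were higher and 3 lower. Nppb, the B-type natriuretic peptide, had log2 ratios of 3.90, 4.30, 2.93 and 3.66, a wide spread beside that of other heart genes. Nppa, atrial natriuretic peptide, had 2.43, 2.41, 2.08 and 2.30. Sln, sarcolipin, a calcium pump inhibitor of atrium and skeletal muscle, was lower, with -3.86, -4.16, -4.36 and -4.03. The other lower genes were Myl4 and Myl7, given above.

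Among 21 measured muscle ubiquitin ligases and their adaptors (of 23), 11 were higher and 1 was lower, with a median of 1.23. Trim63, the gene of MuRF1, a ligase that marks myosin and other muscle proteins for breakdown, had log2 ratios of 2.51, 2.65, 2.71 and 2.67 on its brightest probe and a mean of 0.22 on its other kept probe. Trim54 (MuRF3) had 2.36, 2.26, 2.01 and 2.13. Trim55 (MuRF2), the third of these ring finger proteins, was the 1 lower gene, with -1.57, -1.90, -1.62 and -1.81. The same probe had a mean of -1.35 ± 0.56 in hearts null for MuRF1 and MuRF2 and -1.28 ± 0.19 in MuRF1 het MuRF2 null hearts. Neither mean was below that of wild type hearts (-1.73 ± 0.16). Trim63 had -0.72 ± 0.27 in the hearts null for both genes. What the Trim55 probe reads in heart was not tested. Several genes of the ankyrin repeat and SOCS box family, substrate adaptors of cullin ligases, were among the higher: Asb11 (3.12), Asb2 (2.92), and Asb14 and Asb15, which were above background in heart and not in pup. Asb14 was at least 12.4-fold higher in heart and Asb15 at least 6.44-fold on its brightest probe. The other kept probe of Asb15 had a mean of 0.84. Fbxo40, a muscle F-box protein, was at least 2.82-fold higher, and was not called under median centring or with all 16 arrays in the fit.

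Of 75 genes of oxidative phosphorylation, all of them measured, 71 were higher in heart and 1 was lower, with a median log2 ratio of 2.06 against -0.08 for all genes. By array the list's median was 2.13, 2.08, 1.91 and 2.02. The highest were muscle forms of cytochrome oxidase subunits: Cox6a2 with 4.13, 4.05, 3.66 and 3.90, Cox7a1 with 3.79 ± 0.22 and Cox8b with 3.55 ± 0.18. Ndufc1, a small subunit of complex I, had 2.78 ± 0.08. The 1 lower gene was Cox6a1 (-1.48), the form of subunit 6a found outside heart and skeletal muscle, and it was not called under median centring or with all 16 arrays in the fit.

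The citric acid cycle and the entry of pyruvate had 18 of 26 genes higher and none lower, with a median of 1.58. Mdh1, cytosolic malate dehydrogenase of the malate-aspartate shuttle, had 3.18, 3.13, 3.15 and 3.11, which is a spread of 0.03 (SD). Idh2, mitochondrial isocitrate dehydrogenase, had 2.89, Ogdh, the oxoglutarate dehydrogenase subunit, 2.60, and Got1, the cytosolic aspartate aminotransferase, 2.31. Fatty acid and ketone oxidation had 23 of 34 genes higher, none lower and a median of 1.59. Fabp3, the heart fatty acid binding protein, had 5.18, 5.03, 4.99 and 5.02. Oxct1, which activates ketone bodies for oxidation, had 3.00 ± 0.08, Acot13, an acyl-CoA thioesterase, 2.93 ± 0.13, and Lpl, the lipase that releases fatty acids from lipoproteins, 2.84 ± 0.07. All 34 genes had a ratio above 0.

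Branched-chain amino acid breakdown had 7 of 16 genes higher and none lower, with a median of 1.03. They included Ppm1k (2.25), the phosphatase that activates the branched-chain ketoacid dehydrogenase, and Bckdha (1.91), a subunit of that enzyme. Ivd (2.11), which breaks down the leucine product isovaleryl-CoA, and Mmut (1.66), methylmalonyl-CoA mutase, were also higher. Among nuclear receptors and coactivators of metabolism, 4 of 15 measured genes (of 17) were higher. Perm1, a regulator of mitochondrial genes in muscle, had 3.23 on its brightest probe and 0.94 on the other kept probe, and Rxrg, a retinoid X receptor, had 2.03. Esrra (1.53), an estrogen-related receptor, was not called with the median of its probes, and Ppargc1a (1.3), the coactivator PGC-1 alpha, was not called under median centring, within slide 3 or with all 16 arrays in the fit.

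Glycolysis and glycogen genes were divided: of 33 measured (of 35), 9 were higher, 1 was lower and 23 were not called, with a median of 0.50. Ldhb, the lactate dehydrogenase subunit of heart, had 4.15, 4.10, 3.90 and 3.93. Slc2a4, the insulin-responsive glucose transporter GLUT4, had 2.68 ± 0.13 and Pygb, a glycogen phosphorylase, 2.38 ± 0.04. In the creatine and adenylate kinase group, 6 of 14 genes were higher and 2 lower. Ckmt2, the mitochondrial creatine kinase of striated muscle, had 3.81, 4.13, 4.04 and 3.99. Slc25a4, the adenine nucleotide translocator of heart and muscle, had 3.60 on its brightest probe and 2.85 on its other kept probe. The heart signal of the brightest probe was saturated on all 4 arrays, so by that probe Slc25a4 was at least 12.1-fold higher. Gatm, which makes a creatine precursor, was above background in pup and not in heart, at least 2.94-fold higher in pup.

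Genes for oxygen storage, small heat shock proteins and antioxidants had 12 of 22 measured genes higher (of 23) and none lower, with a median of 1.34. Mb, myoglobin, had 4.23, 4.36, 3.90 and 3.85, with both arrays of slide 1 above both of slide 3. The small heat shock proteins Hspb7 (3.21) and Cryab (3.02) and the mitochondrial transhydrogenase Nnt (2.86) were also higher. Of 13 measured genes of the circadian clock and its output (of 18), 3 were higher. Dbp, a clock-controlled factor, had 1.37, 1.89, 2.76 and 2.54, with both arrays of slide 3 above both of slide 1. Nr1d1 (1.26), a nuclear receptor that feeds into the clock, was not called under median centring or with all 16 arrays in the fit. Its call was also lost within slide 3, without array 1 or without array 2.

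Skeletal muscle, the other striated muscle of the pup, stood on the opposite side. Of 32 measured skeletal muscle genes (of 37), 24 were lower in heart and 1 was higher, with a median of -2.17. Myl1, the fast essential light chain, had log2 ratios of -4.46, -5.05, -4.69 and -4.72. Neb, nebulin, the thin filament ruler of skeletal muscle, had -3.97 on its brightest probe, and its 4 kept probes reached -0.15. Tnnt3 (-3.94), fast troponin T, and Myh3 (-3.82), embryonic myosin, were lower too. The 1 higher gene was Atp2a1, the fast calcium pump, with 2.39 on its brightest probe and -1.96 on its other kept probe; with the median of the probes its ratio was 0.22 and it was not called.

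Many muscle and metabolic proteins have 1 gene whose form is known from adult heart and relatives used in other tissues, chambers or ages. The array could set these forms side by side. In 40 measured pairs from 30 families, the ratio of the heart form was above that of the other form on all 4 arrays in 39 pairs. In the remaining pair, hexokinase, Hk2 had 1.62 and Hk1 1.37, and Hk2 lay above Hk1 on 3 of the 4 arrays. In 19 pairs the heart form was higher in heart and the other form lower. Of the 30 heart forms 25 were higher in heart; of the 40 other forms 22 were lower and 3 higher, namely Atp2a1, Cox7a2 (1.65) and Hk1. Hk1 was not called with the median of its probes or with all 16 arrays in the fit. The pairs were drawn up from knowledge of which form the adult heart uses, and several pairs share a heart form. Some relatives are themselves forms of the fetal heart or the atrium, namely Myh7, Myl4, Myl7 and Tnni1. For Igf1, set against Igf2, heart form is only the label of the first gene of the pair.

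The widest difference was in fatty acid binding proteins, where Fabp3 stood 10.31 log2 units above the liver form Fabp1 (-5.25), between 10.15 and 10.54 on single arrays. Troponin I followed, with Tnni3 above the fast skeletal Tnni2 (-3.34) by 9.48 and above the slow skeletal Tnni1 (-2.08), which is also the fetal heart form, by 8.22. In myosin binding protein C, Mybpc3 stood 9.1 above the slow form Mybpc1 (-2.64) and 8.11 above the fast form Mybpc2 (-1.65). In myosin heavy chain, Myh6 stood 6.04 above Myh7, from 5.63 to 6.63 on single arrays. In muscle actin, Actc1 stood 6.08 above the skeletal form Acta1 (-3.51) and 3.57 above the smooth muscle form Acta2 (-0.99, not called).

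Metabolic families showed the same order. Ckmt2 stood 5.84 above the ubiquitous mitochondrial creatine kinase Ckmt1 (-1.85), and Cox6a2 stood 5.41 above Cox6a1. By its saturated brightest probe, Slc25a4 stood at least 4.42 above Slc25a5 (-0.81), the form of dividing cells. Ldhb stood 4.02 above Ldha, whose own ratio was 0.00 ± 0.24. Slc2a4 stood 3.13 above Slc2a1 (-0.45), the basal glucose transporter, and Cpt1b stood 2.74 above Cpt1a (-0.87), the liver form of the enzyme that admits fatty acids to mitochondria. The enolases were closer, with Eno3 (0.74) 0.77 above Eno1 (-0.03). In the insulin-like growth factors neither form was higher in heart, and Igf1 (-0.64, not called) stood 3.18 above Igf2 (-3.82).

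**Figure D3:**
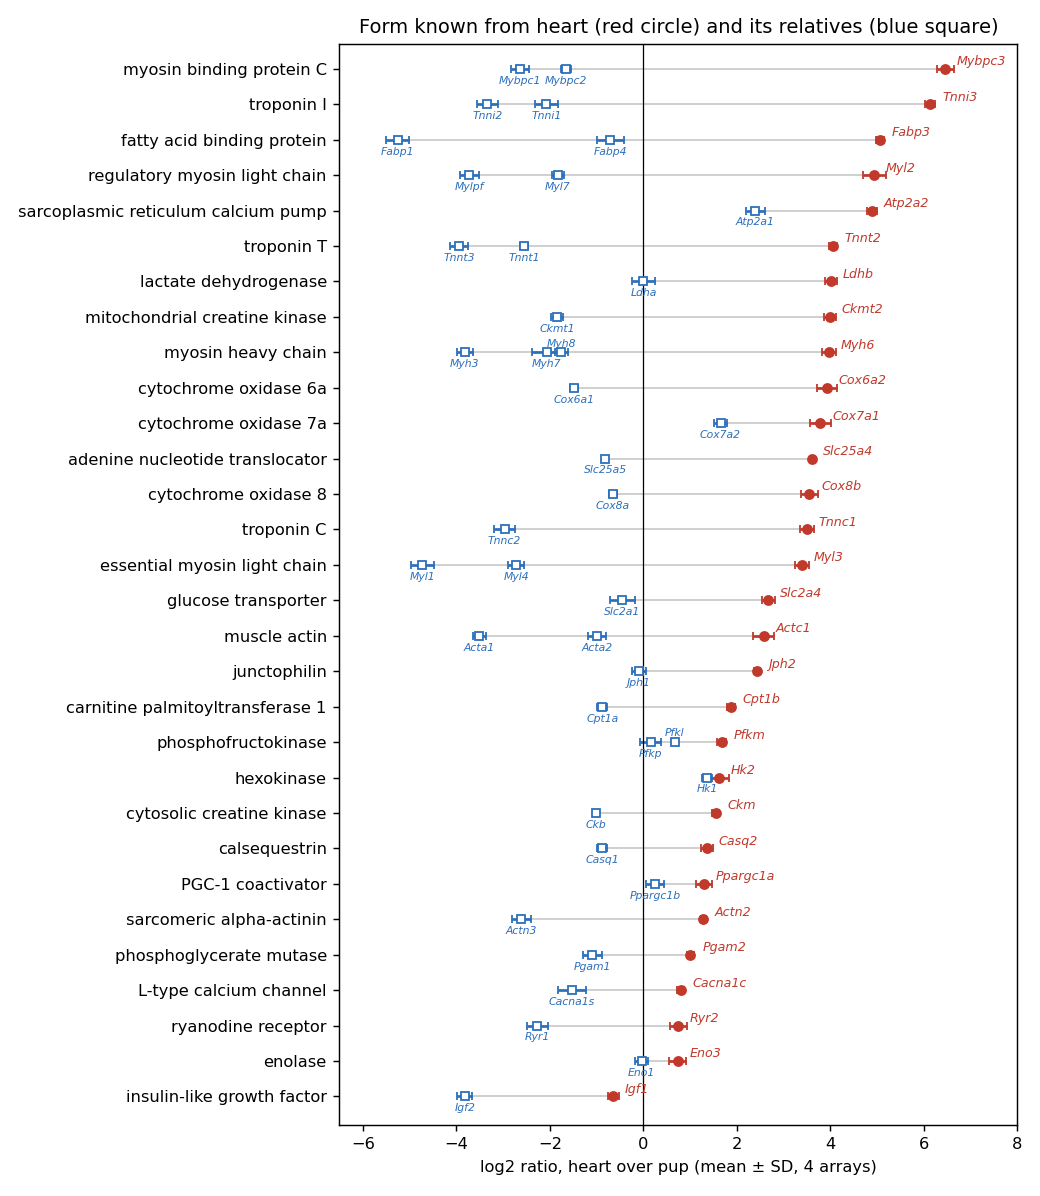
Mean log2 ratio of heart over pup (bars: SD, n = 4 arrays) in 30 families. Red circles are the form of a protein known from adult heart and blue squares its relatives, some of them fetal or atrial heart forms. The red circle lies right of every blue square in its row; the closest pair is Hk2 (1.62) and Hk1 (1.37). Ryr2 was not well above background in pup and Slc25a4 was saturated in heart.

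Genes of the cell cycle lay on the pup side. Of 28 measured mitosis genes (of 30), 10 were lower in heart and none higher, with a median of -1.02. Mki67, the antigen Ki-67 of dividing cells, had log2 ratios of -2.81, -3.18, -2.88 and -2.87. Birc5 (-2.78), survivin, which acts in the chromosomal passenger complex, was lower, and so were Cdca8 (-2.11), its partner borealin, and Cenpe (-2.08), a kinetochore motor. Top2a, a topoisomerase of dividing cells chosen after its value was seen, was not well above background in heart, was at least 1.81-fold brighter in pup and was not called. The other kept probe of Top2a had a mean of -0.24. Of 38 measured genes of DNA replication and E2F targets (of 39), 10 were lower and none higher, with a median of -0.68, and all 38 had a ratio below 0. Mcm6, a subunit of the replicative helicase, had -2.39, -2.31, -2.04 and -2.25. Cdt1 (-1.97), which loads that helicase, E2f2 (-1.75), an activating E2F factor, and Mcm4 (-1.73) were the next lowest. E2f1, chosen because the title of the series names it, was not well above background in heart, was at least 1.19-fold brighter in pup and was not called. The other kept probe of E2f1 had a mean of 0.00.

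The cell cycle counts moved with the background correction. For 10 of the 28 mitosis genes and 9 of the 38 replication genes the brightest probe was not well above background in heart on any array. With plain subtraction of the local background, 22 of 28 mitosis genes and 18 of 38 replication genes were lower. With the log ratio of Feature Extraction the counts were 27 and 23, and no member was higher under either. Cenpe was not called with the median of its probes.

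Promoters of genes that peak in mitosis often hold CCAAT boxes and the CHR element, and those of replication genes E2F sites. Mki67 and Mcm6 are shown because each was the lowest of its list. The capitals in Mki67 mark 3 CCAAT boxes (CCAAT or its reverse ATTGG) and 2 CHR elements (TTTGAA), and those in Mcm6 mark 2 E2F matches (TTTGGCGC) and 2 CCAAT boxes. Both runs are the 250 bases before the RefSeq start in GRCm38.p6, 5′ to 3′ on the minus strand: chr7:135716380-135716629 and chr1:128359706-128359955.
Mki67: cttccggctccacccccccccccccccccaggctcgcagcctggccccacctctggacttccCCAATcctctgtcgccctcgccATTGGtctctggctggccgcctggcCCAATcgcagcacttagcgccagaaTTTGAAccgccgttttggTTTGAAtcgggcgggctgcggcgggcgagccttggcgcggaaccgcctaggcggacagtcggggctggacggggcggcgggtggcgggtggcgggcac
Mcm6: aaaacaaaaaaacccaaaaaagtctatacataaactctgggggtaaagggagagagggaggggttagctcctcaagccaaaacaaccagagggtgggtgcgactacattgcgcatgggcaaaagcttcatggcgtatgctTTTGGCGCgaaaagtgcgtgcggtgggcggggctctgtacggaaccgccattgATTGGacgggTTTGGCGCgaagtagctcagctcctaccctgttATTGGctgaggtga
In Mki67 the CCAAT boxes begin 188, 166 and 141 bases before the start and the CHR elements 116 and 98 bases before it. In Mcm6 the E2F matches begin 110 and 47 bases before the start. RefSeq promoters were found for 25 of the 30 mitosis genes, with 26 starts, of which 88.5% held a CCAAT box and 76.9% a CHR element within the 300 bases on either strand. Among the 13652 promoters of genes tested these shares were 37.1% and 12.3%. E2F letters (TTTCCCGC, TTTCGCGC, TTTGCCGC or TTTGGCGC) were in 35.9% of 39 promoters of the list of DNA replication and E2F targets. That list was drawn up to include E2F targets, so its share is no independent result. The letters were in 3.56% of promoters of all genes tested, 2.77% of those higher in heart and 4.23% of those lower. Matches of the 4 E2F words can overlap each other on opposite strands. What these letters do in the 4 hearts was not measured.

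Of 22 measured imprinted genes (of 25), which are expressed from the copy of 1 parent and many of which govern fetal growth, 14 were lower in heart and none higher, with a median of -1.57. Dlk1, a Notch-like inhibitor of differentiation, had log2 ratios of -3.91, -4.05, -4.31 and -4.06. Mest had -3.82, -4.27, -3.95 and -3.91. Plagl1, a zinc finger factor, had -3.91 on its brightest probe and -0.35 on its other kept probe. Igf2, the main fetal growth factor, had -3.63, -3.94, -3.97 and -3.75. H19 (-3.16), the noncoding neighbour of Igf2, and Cdkn1c (-3.55), a cell cycle inhibitor, both chosen after their values were seen, were lower as well.

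In the insulin-like growth factor axis, 5 of 14 measured genes (of 15) were lower and none higher. With plain subtraction, an offset of 0 or the Feature Extraction log ratio 6 were lower and 1 was higher. Igfbp1, a binding protein made by liver, had -4.93, -5.35, -5.58 and -5.20, and Igfbp2 had -2.91 ± 0.10. Igfbp5 (-1.90) and the receptor Igf1r (-1.54) were lower on their brightest probes and were not called with the median of their probes. Of 12 measured fetal growth regulators (of 15), 2 were lower: Gpc3 (-3.48), a glypican that restrains growth, and Sox11 (-1.47), a factor of embryonic progenitors. The brightest probe of Sox11 was not well above background in heart, and the gene was not called with the median of its probes or with all 16 arrays in the fit. None of 20 measured HOX genes (of 39) was called by limma's treat, and 19 of them had a ratio below 0. The brightest probe of 15 of them was not well above background in heart on any array. With the Feature Extraction log ratio 14 HOX genes were lower and 1 was higher.

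Of 76 cytosolic ribosomal protein genes, all measured, 17 were lower in heart, 59 were not called and none was higher, with a median of -0.94, and 75 had a ratio below 0. The lowest were Rpl3 (-2.05, measured on 3 arrays because its spot on array 1 was irregular), Rps12 (-1.68), Rpl5 (-1.65) and Rpl4 (-1.52). The exception in sign was Rpl21, chosen after its value was seen, with 0.83. Rps12 and Rpl5 were not called under median centring. Rps12 was also not called with the median of its probes or with all 16 arrays in the fit. The count of 17 moved with the processing: it was 4 under median centring, 5 with all 16 arrays in the fit, 9 with the median of probes and 8 within slide 1, and 34 with plain subtraction. Ribosomal protein genes have many near-identical pseudogenes, which probes may not separate.

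**Figure D4:**
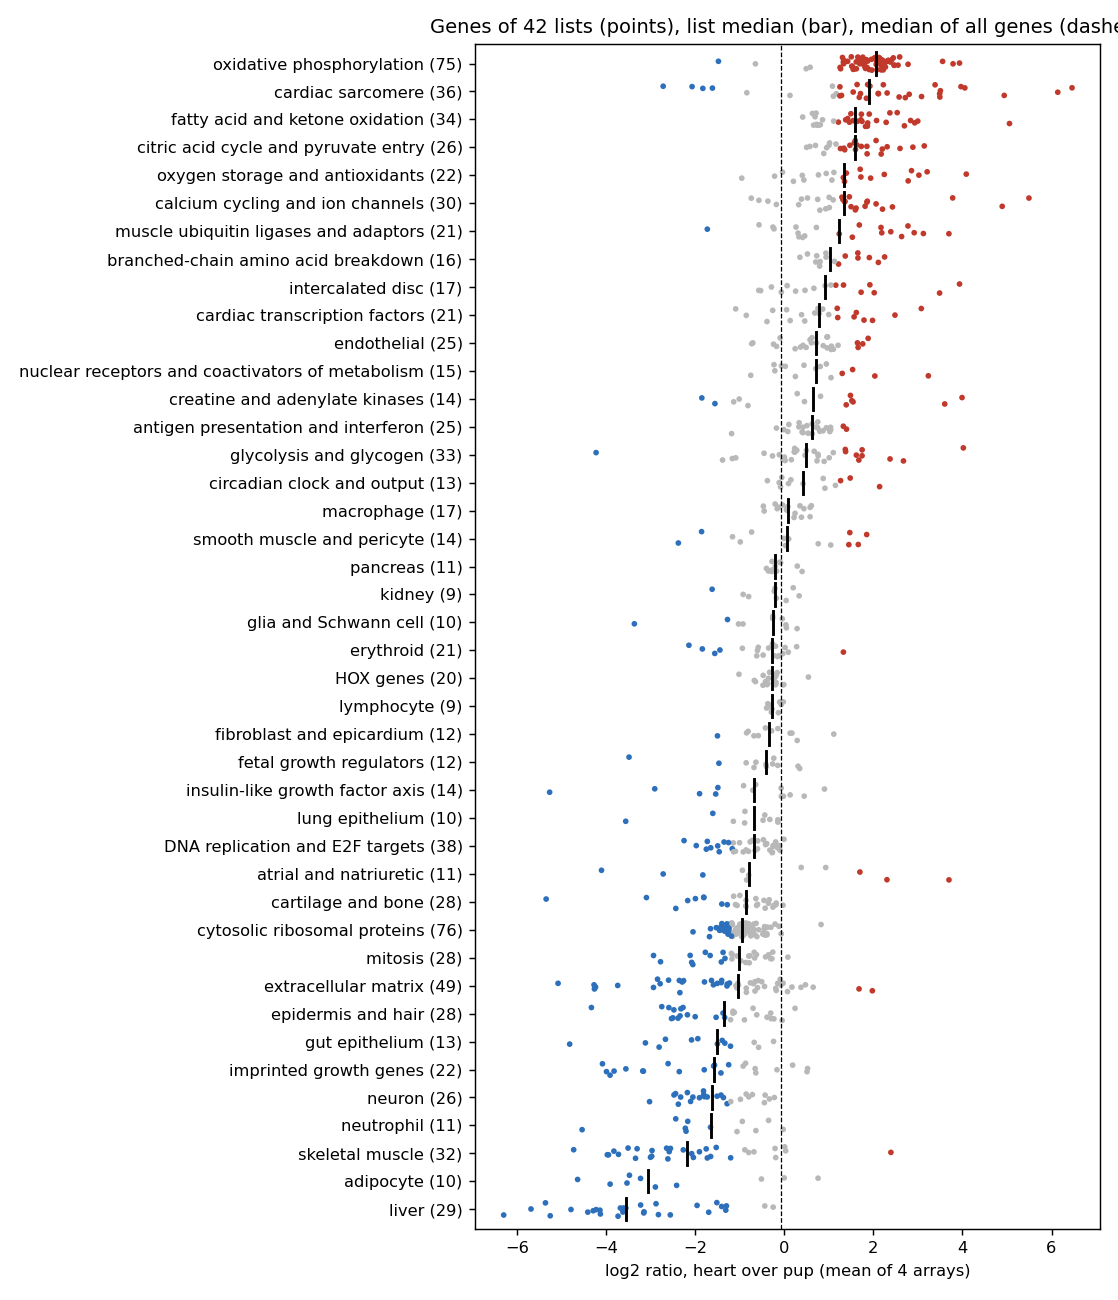
Mean log2 ratio of heart over pup of each measured gene (points) in 42 lists, sorted by the list's median (black bar), with the number of genes in brackets. Red points are higher in heart, blue points lower and grey points not called; the dashed line is the median of all genes, -0.08, and medians run from 2.06 for oxidative phosphorylation to -3.56 for liver.

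The liver gave the largest shift of any list measured. Of 29 measured liver genes (of 30), 27 were lower in heart and none higher, with a median of -3.56. Afp, alpha-fetoprotein, the main plasma protein of the fetus, had log2 ratios of -5.85, -6.43, -6.73 and -6.18, the lowest of all genes. Fgg, a fibrinogen chain, had -5.45, -5.76, -6.02 and -5.50. Ambp (-5.36), the precursor of a plasma protease inhibitor, Apoh (-4.79), a plasma glycoprotein, and Trf (-4.58), transferrin, were also among the 15 lowest. Alb, albumin, chosen after its value was seen, had -3.15. Cfi, complement factor I, was above background in pup and not in heart, at least 9.11-fold higher in pup. Among other such genes of pup, Aadac and Cyp3a41a, liver enzymes, were each at least 5.78-fold higher in pup. Slc27a2, a fatty acid transporter, was at least 5.59-fold higher in pup on its brightest probe, and its other kept probe had a mean of -0.12. Slco1b2, a liver uptake transporter, was at least 4.49-fold higher in pup. Fbp1 (-4.77), an enzyme of glucose synthesis, Cstdc6 (-5.08), of the cystatin family, and Itm2a (-5.02), a membrane protein, completed the 15 lowest genes together with those named in other groups.

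In bone, cartilage and connective tissue, Spp1, osteopontin, a bone matrix protein, had -5.12, -5.43, -5.65 and -5.17. Col2a1, the collagen of cartilage, had -3.09 ± 0.07, and Ibsp, bone sialoprotein, was at least 4.49-fold higher in pup. Of 28 measured genes of cartilage and bone (of 30), 9 were lower, 19 were not called and none was higher, and with the Feature Extraction log ratio 24 were lower. Among 49 genes of the extracellular matrix, all measured, 22 were lower and 2 higher, with a median of -1.04. Col1a1, the main collagen of bone and skin, had -4.87, -5.40, -5.04 and -4.99 on its brightest probe, while its 3 kept probes reached -0.62. Postn (-4.27), periostin, Col3a1 (-4.26) and Col1a2 (-4.23) followed, and Col3a1 and Col1a2 each had a second kept probe near 0 (-0.20 and -0.43). The 2 higher genes were Timp4 (1.98), a metalloproteinase inhibitor, and Lamb2 (1.68), a laminin chain. Col4a1, a basement membrane collagen chosen after its value was seen, had -0.76 and was not called.

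Of 28 measured genes of epidermis and hair (of 33), 15 were lower and none higher. For 8 of them the brightest probe was not well above background in heart, and 25 were lower with the Feature Extraction log ratio. Lor, loricrin, the main protein of the cornified envelope, had -3.98, -4.52, -4.57 and -4.24. Krt5 (-2.59) and Krt10 (-2.53), keratins of the basal and upper epidermis, were lower, and Kprp, a protein of the cornified layer, was at least 7.56-fold higher in pup. Cdh1, the cadherin of epithelia, was at least 4.99-fold higher in pup. Of 26 measured neuron genes (of 27), 17 were lower and none higher, with a median of -1.62. The brightest probe of 12 of them was not well above background in heart, and 25 were lower with the Feature Extraction log ratio. Nsg2 had -3.02 ± 0.19 and Chgb, a secretory granule protein, -2.38 ± 0.18. Nefl, the light neurofilament, was at least 5.56-fold higher in pup on its brightest probe, and its other kept probe had a mean of -1.30. Ncam1 had -2.44 on its brightest probe, while its 7 kept probes reached 0.54, and it was not called with their median. Of 10 glial genes (of 12), Fabp7 (-3.36), of radial glia, and S100b (-1.27) were lower. S100b was not called within slide 1 or with all 16 arrays in the fit.

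The gut had 10 of 13 measured genes lower (of 15), led by Fabp2, the intestinal fatty acid binding protein, with -4.59, -4.82, -5.12 and -4.73. Apoa4 (-3.12), Lgals4 (-2.81) and Lct (-2.67), lactase, the milk sugar enzyme, were lower as well. In lung epithelium 2 of 10 genes were lower, Sftpc (-3.56) and Sftpd (-1.60), surfactant proteins. Under median centring, plain subtraction or an offset of 0 the lung list had 5 lower genes, and 7 by the ratio of Feature Extraction. Kidney had 1 of 9 measured genes lower (of 14), Cubn (-1.62), against 6.96% of all genes tested. The brightest probe of 5 kidney genes was not well above background in heart on any array, and with the Feature Extraction log ratio 6 were lower. None of 11 measured pancreas genes (of 18) was called by limma's treat, and 8 were lower with the Feature Extraction log ratio. Fat tissue had 7 of 10 measured genes lower (of 11). Ucp1, the uncoupling protein of brown fat that makes heat, had -4.41, -4.61, -4.91 and -4.61, and Car3 (-3.91), Cfd (-3.53) and Cidec (-3.47) followed.

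Of 11 measured neutrophil genes (of 14), 6 were lower and none higher. For 5 of them the brightest probe was not well above background in heart, and 10 were lower with the Feature Extraction log ratio. S100a9 had -4.54 ± 0.26 and Mpo, myeloperoxidase, -2.44 ± 0.17. Of 21 measured erythroid genes (of 24), 4 were lower and 1 was higher. The brightest probe of 9 of them was not well above background in heart. With the Feature Extraction log ratio 9 were lower and 1 was higher. Slc4a1, the anion exchanger of red cells, had -2.14 ± 0.09 and Car2, a carbonic anhydrase, -1.84 ± 0.07. Hba-a1, adult alpha globin, had -1.51, -1.93, -1.26 and -1.53, and was not called under median centring or with all 16 arrays in the fit. Hbb-y, an embryonic globin chosen after its value was seen, was not well above background in heart and was not called, and no bound could be given. The higher gene was Sptb (1.33), a spectrin also found in striated muscle. Sptb was not called under median centring, with the median of its 4 probes or with all 16 arrays in the fit. No call was made by limma's treat among 17 measured macrophage genes (of 18, median 0.08), or among 9 measured lymphocyte genes (of 16, median -0.27). The sign of the macrophage median turned under median centring (-0.03). With the Feature Extraction log ratio 1 macrophage gene was higher and 2 lymphocyte genes were lower.

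Markers of vessels and stroma, which the heart shares with other organs, had smaller ratios. Of 25 endothelial genes, all measured, 4 were higher and none lower, with a median of 0.72. They were Tcf15 (1.88), a factor of capillary endothelium in heart and muscle, Flt1 (1.76), a VEGF receptor, Ptprb (1.66), an endothelial phosphatase, and Gpihbp1 (1.64), which holds lipoprotein lipase on capillaries. Ptprb was not called with the median of its probes. Pecam1, a general endothelial marker chosen after its value was seen, had 0.42 and was not called. Among 14 genes of smooth muscle and pericytes, 4 were higher and 2 lower. Rgs5 (1.85) and Abcc9 (1.66), of pericytes, were higher, and Cnn1 (-2.38) and Tagln (-1.85), contractile genes of smooth muscle, were lower. Abcc9 was not called under median centring or with the median of its probes. Of 12 fibroblast and epicardium genes 1 was lower, Wif1 (-1.5), a share near the 6.96% of all genes tested. Antigen presentation and interferon genes had 2 of 25 measured genes higher (of 26), a share near the 6.08% of all genes tested. One was H2-Ab1 (1.40), a class II chain. Neither was called under median centring, with the median of probes or with all 16 arrays in the fit, while 8 of the 25 were higher with plain subtraction or an offset of 0 and 9 with the Feature Extraction log ratio.

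A few genes differed widely between the 4 hearts. Pttg1, securin, which guards sister chromatid separation, had the widest range among genes above background in both channels, with -0.61, 1.36, -0.88 and 0.54. Bdh1, the ketone body dehydrogenase, had 1.12, 0.97, -1.12 and 0.68. Tfrc, the transferrin receptor that brings iron into cells, had -0.30, -0.64, 1.05 and 0.26. For these 3 genes heart lay above pup on some arrays and below on others, and none was called. Angptl4, an inhibitor of lipoprotein lipase, was lower on all arrays, with -1.10, -3.03, -1.96 and -1.93. Rhobtb1, a gene of a BTB domain protein, was higher on all, with 1.05, 1.45, 2.72 and 2.10, and both arrays of slide 3 lay above both of slide 1. Its call was lost with plain subtraction, with an offset of 0, under median centring and within slide 1.

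Sex chromosome genes also differed between arrays. Xist, the RNA that silences 1 X chromosome in female cells, had -3.19, -1.99, -3.75 and -2.59 on its brightest probe and was lower in heart. The 3 kept probes of Xist reached -0.54, and the brightest was well above background in heart on 3 of the 4 arrays. The Y-linked genes Eif2s3y (1.20, -1.03, 1.34 and 0.74) and Ddx3y (1.26, -0.59, 1.31 and 0.78), chosen after their values were seen, were below 0 on array 2 alone. Heart signal of both was well above background on 3 of the 4 arrays. Array 2 also had the highest ratio of Xist. Without array 2 the counts were 886 genes higher and 984 lower.

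**Figure D5:**
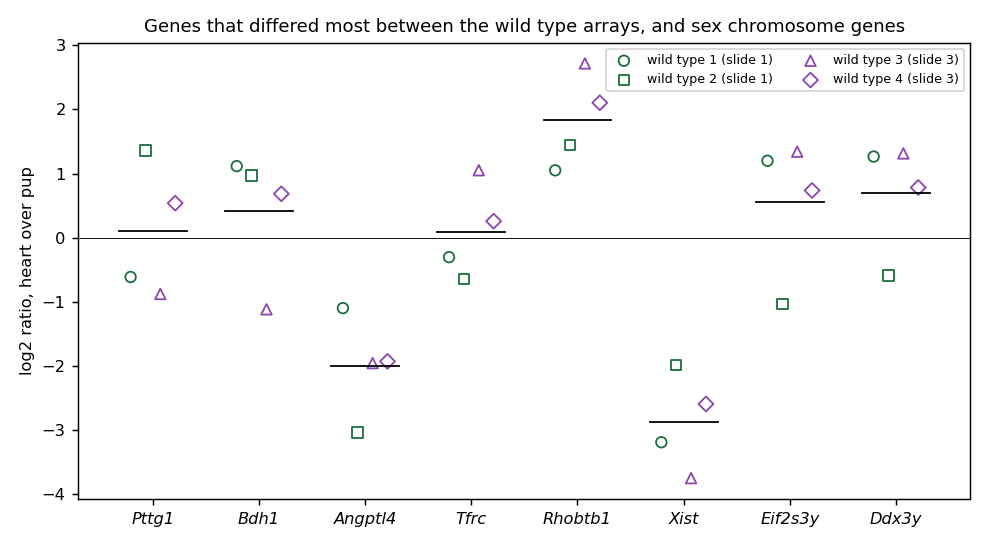
Log2 ratio of heart over pup on each of the 4 wild type arrays (bars: mean), with 3 sex chromosome genes on the right. The other 5 genes had the widest range among genes well above background in both channels on all arrays. Pttg1 spans -0.88 to 1.36 and Bdh1 -1.12 to 1.12, and Eif2s3y and Ddx3y are below 0 on array 2 only.

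The other 12 arrays carried the same pup RNA in Cy3, so their ratios share the denominator of those above and are not independent of them. Myh6 had a mean ratio of 2.45 ± 0.61 in hearts null for MuRF1 and MuRF2, 3.33 ± 0.74 in MuRF1 null MuRF2 het hearts, 4.09 ± 0.13 in MuRF1 het MuRF2 null hearts and 3.97 ± 0.15 in wild type hearts. Myh7 had 2.36 ± 1.87, -0.56 ± 1.15, -0.66 ± 0.76 and -2.07 ± 0.31 in the same order of genotypes, and Nppa had 5.21 ± 1.00, 2.80 ± 0.18, 3.19 ± 0.56 and 2.31 ± 0.16 (SD, n = 4 each). The double null arrays shared slides 1 and 3 with the wild type arrays. All MuRF1 null MuRF2 het arrays were on slide 2. All MuRF1 het MuRF2 null arrays were on slide 4 and were read with Feature Extraction 9.5.3.1 in place of 9.1.3.1. For these 2 genotypes a difference of genotype and one of slide or software cannot be told apart. Differences between genotypes were not tested here.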

How the data were processed

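Spot intensities of 4 wild type arrays were analysed. Per the file headers, the authors scanned the arrays on a GenePix scanner and read them with Agilent Feature Extraction 9.1.3.1; the deposited files give mean spot intensity, median local background intensity and quality flags in both colours. They also hold a deposited log10 ratio of Cy5 over Cy3, made by the authors in that program, which was used as an alternative. Each sample's 50 ng of RNA had been amplified before labelling, per the labels.

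In R 4.3.3 with limma 3.58.1, background was corrected by normexp with an offset of 50 and each array normalised by loess, which takes most genes as balanced although the 2 tissues are unlike. The offset draws ratios of dim probes towards 0. Irregular and control spots had no weight, and 43379 spots gave 41174 probes. A probe was kept if well above background in Cy5 or in Cy3 on all 4 arrays, with at most 1 array missing (21606 probes). Each of 15414 genes was represented by its brightest probe; 4739 genes had more than 1 kept probe, and in 211 these differed in sign and by over 1. Names came from RefSeq (GRCm38.p6) by accession for 22951 probes, symbol for 6659 and synonym for 3105, and from the array files for 8459. The number of arrays limits the precision.

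The test was limma's treat, two-sided, on the 4 ratios of a gene against 2-fold, adjusted by Benjamini-Hochberg over all 15414 genes. The test was checked on simulated data. Named genes were Myh6, Afp, the 3 MuRF genes, the 15 highest and 15 lowest ratios, the 10 largest bounds each way, up to 4 members per list and any against its direction, all gene pairs, and the 5 widest ranges; some genes and pairs that the rule names are not reported here, though list counts include them. The members, lists, pairs and tests were chosen with earlier results of these data known. Alternatives covered background, normalisation, filters, saturated spots, probe choice, slide, samples and thresholds. The series matrix, which centres each probe, was not used.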

Additional observations from a re-analysis of the deposited data

Results flagged for a closer look

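Of 228 named genes, 8 had 1 array that lay far from the other 3 by Dixon's test, and chance alone gives about 1 in 20. On array 3, Fbp1 had a log2 ratio of -5.0 (others -4.72 to -4.67), Tnnt3 -4.22 (others -3.87 to -3.82), Sox11 -1.69 (others -1.40 to -1.39), S100b -1.52 (others -1.20 to -1.19) and Lct -3.00 (others -2.58 to -2.54). On array 1, Car2 had -1.73 (others -1.89 to -1.87), Krt5 -2.31 (others -2.70 to -2.66) and Ckb -0.94 (others -1.04 to -1.03). No array changed the sign of any of these genes.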

How the results depend on the processing

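The counts of 937 higher and 1073 lower genes were 1697 and 2337 with plain background subtraction, 1545 and 2182 with an offset of 0, 1966 and 3440 with the Feature Extraction log ratio, 5272 and 6889 against 0, and 1774 and 2151 against 1.5-fold. Median centring gave 600 higher. The other settings stayed within 1.5 times: leaving out each replicate in turn gave 874 to 935 higher and 984 to 1080 lower, slide as a block 956 and 1105, and all 16 arrays in the fit 716 and 788. Of 193 named genes that were called, 164 kept their call under every alternative in which they could be tested, 29 lost it under at least 1, and none turned its direction. Leaving out array 1 or array 2 lost Nr1d1. List medians changed sign in 4 cases, smooth muscle and pericyte (-0.24) and macrophage (-0.032) under median centring, and pancreas (0.35) and kidney (0.12) when both channels had to be above background. The cause was not tested. Dim signal limits the ratios of genes low in heart, where 2896 have only a bound. Each ratio sets heart against pup within an array. No paired analysis was possible because the pup pool carries no replicate number that could tie it to a heart beyond the array they share.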
